A study of Mus musculus with 19 samples.

Results

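The Csf1r locus was described through 22 of the 140383 accessible regions in the consensus ATAC-seq peak list, all those that overlapped chr18:61205000-61285000 (mm39). The gene lies on the plus strand at about 61238644 to 61264211, a span of 25568 bp, which equals the gene's length in the RefSeq table of GRCm38.p6. Csf1r encodes the receptor tyrosine kinase for the cytokines CSF1 and IL-34, which macrophages and their precursors need to survive and mature. Its macrophage promoter is a classical target of the myeloid transcription factor PU.1. A conserved enhancer inside the gene's early introns, the Fms intronic regulatory element (FIRE), is known for its part in Csf1r expression in macrophages. In ATAC-seq, the Tn5 transposase inserts adapters into DNA that is not covered by nucleosomes. Accessible DNA, including that of many promoters and enhancers, therefore appears as peaks. A peak shows accessibility and not use.

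The study collected 19 samples of mouse bone marrow-derived macrophages, cultured for 7 days with 4-hydroxytamoxifen each day: 9 wild-type and 10 Smarca5-deleted. Smarca5 encodes an ATPase of the ISWI chromatin remodelling complexes. Cells of each genotype were untreated, given LPS at 10 ng/ml for 1 or 2 h, or given interferon beta for the same times (100 U/ml). Of these 10 groups, 9 had 2 samples each; only 1 sample represented wild-type cells after 1 h of interferon beta. Every group carried Csf1r-Cre, the wild-type controls included, and the deleted cells also carried floxed Smarca5. Csf1r-Cre places the recombinase under Csf1r regulatory DNA, and in this list reads from any added copy of that DNA cannot be told apart from reads of the gene itself.

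The list gives 1 pooled value per peak and names no sample, so no value of a single sample, no replicate error and no difference between genotypes or treatments can be given here. Depth is unknown. Fold is the authors' enrichment of a peak over its local background, and −log10 q is the authors' measure of how far a peak rises above that background by their test. Both serve only to describe and rank peaks within the list. Peaks were placed by the distance of their summit from the gene start, since no exon map of mm39 was used here.

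The peaks lay on both sides of the gene and within it. There were 8 upstream of the gene, 10 with a summit inside its span and 4 downstream. The 10 inside the gene fell into a group of 3 at the gene start, a stretch of 10410 bp without a peak, and a group of 7 in the remainder of the gene. Together the 22 peaks covered 5969 bp, or 7.46% of the window.

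**Figure D1:**
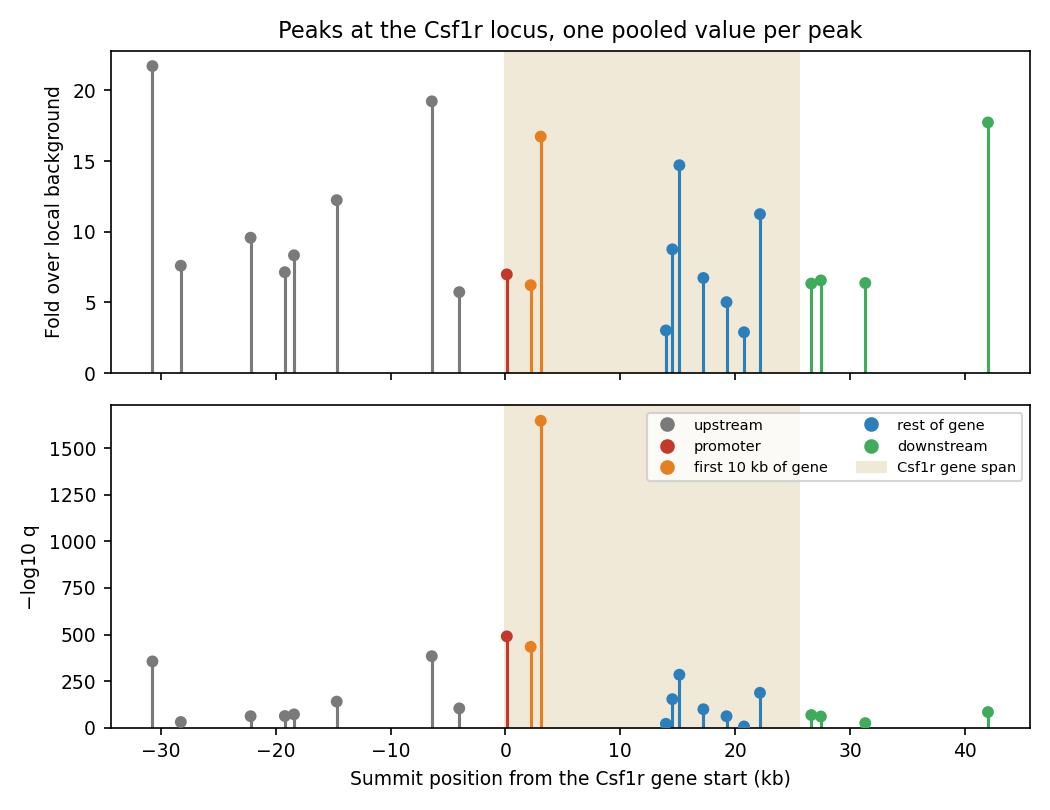
Fold over local background (upper axis) and −log10 q (lower axis) of each of the 22 peaks against the distance of its summit from the Csf1r gene start in kb, 1 pooled value per peak, with no error bars because the list holds no replicates. The highest fold, 21.7, is far upstream, whereas the top −log10 q, 1646, is at +3068 bp inside the gene.

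The promoter peak lay at chr18:61238595-61239101 and was 507 bp wide. It began 49 bp before the gene start and had its summit 113 bp after it. It was wider than most peaks, at the 93.0th percentile of width in the list, and its −log10 q of 490.4 stood at the 94.7th percentile. Its fold, however, was only 6.98, at the 27.5th percentile. The promoter of the macrophages' own growth factor receptor was thus among the peaks of high −log10 q and, by fold, below the list's median of 9.85.

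The strongest peak by −log10 q at the locus lay inside the gene, at chr18:61241435-61242086, with its summit 3068 bp after the gene start. Whether it coincides with FIRE, or lies in an intron, was not tested, because no mm39 sequence or exon map was used here. It was 652 bp wide, at the 97.3rd percentile. Its fold was 16.7 and its −log10 q was 1646, rank 7 of the 4318 peaks on chromosome 18 and rank 213 in the whole list. Compared with the promoter peak 2955 bp away, summit to summit, its fold was 2.40 times as high and its −log10 q 3.36 times as high.

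Between the promoter and this peak lay a narrower one, at chr18:61240742-61240924, 183 bp wide and with its summit 2194 bp after the gene start. Its fold was 6.22, at the 20.5th percentile, and its −log10 q was 434, at the 93.6th percentile. The promoter peak and both peaks after it therefore took the 3 highest −log10 q values of the window. They lay within 3492 bp, and they held 53.1% of the −log10 q summed over the 22 peaks.

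These 3 peaks differed from most of the list in how −log10 q and fold went together. To show this, the −log10 q of each peak was divided by the median of all peaks in the same of 100 bins of fold; this ratio is called the relative −log10 q below. It was 25.0 for the promoter peak, 25.5 for the peak at +2194 bp and 16.6 for the peak at +3068 bp. In the whole list, only 26, 23 and 125 peaks had a higher ratio. On chromosome 18 the peak at +2194 bp had rank 1, the promoter peak rank 2 and the peak at +3068 bp rank 4. Among peaks in the same quartile of width, the ratio of the peak at +3068 bp was 9.94, while those of the promoter peak and the peak at +2194 bp were 25.9 and 25.5.

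The same contrast showed beside other peaks of the locus, picked for their like fold. The peak with its summit 19212 bp upstream had a fold of 7.14, near the promoter's 6.98, and a −log10 q of 63.3, so the promoter's −log10 q was 7.75 times as high. The peak 42010 bp after the gene start had a fold of 17.7, near the 16.7 of the peak at +3068 bp. Its −log10 q was 84.6, and its relative −log10 q, 0.774, was low in the list. The −log10 q of the peak at +3068 bp was 19.5 times as high. That size depends on the peak chosen. The members next nearest in fold, at 14.7 and 19.2, had −log10 q of 285 and 384, also below 1646. A relative −log10 q of at least 10 was found for 3 of the 22 peaks, against 0.618% of the list, and of at least 5 for 6 of the 22, against 4.19%. Both limits were chosen after the values were seen. The 3 peaks lie within 3492 bp and share libraries and local background, so they are not independent of each other.

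**Figure D2:**
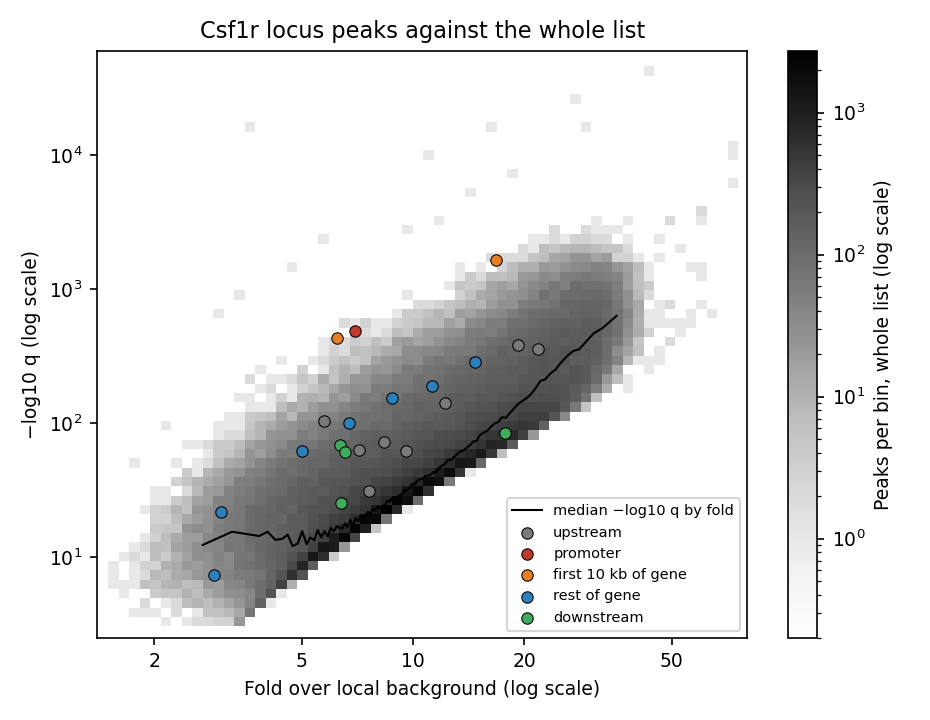
Fold (x axis, log scale) against −log10 q (y axis, log scale) for the 22 peaks of the Csf1r locus, coloured by position, over the density of all 140383 peaks in grey; the black line joins the medians of the 100 bins of fold. The promoter peak and the peaks at +2194 and +3068 bp lie at the upper edge of the cloud, with relative −log10 q of 25.0, 25.5 and 16.6.

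Fold and the −log10 p of the authors' deposited table can be turned into the number of overlapping fragments at the summit and in the local background that a single Poisson test would need to give both. This reading assumes the fold and p of MACS2 with 1 added to pileup and background, and treats pooled values as if they were 1 test. At a given fold, a higher −log10 p always gives a higher calculated background. A high background at peaks of high relative −log10 q is therefore built in and is no separate finding. It gave a summit pileup of 1038 fragments at the promoter, 1009.6 at +2194 bp and 2016 at +3068 bp, against a median of 73.0 over the list. The corresponding backgrounds were 148, 161 and 119.6 fragments, against a median of 5.80 over the list. These were the 3 highest backgrounds of chromosome 18, with 49, 33 and 115 peaks higher in the whole list. By this reading the low fold of the promoter peak came with a pileup at the 98.9th percentile divided by a background 25.5 times the list's median. Any reads from added Csf1r-Cre copies are part of these counts, and their share was not tested.

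The calculated background was lower at each of the other 19 peaks than at these 3. The peak 4023 bp upstream, named here after its values were seen, had a fold of 5.73 and a relative −log10 q of 6.65, with a calculated background of 44.4 fragments. In the remainder of the gene the background ranged from 14.5 to 37.8 fragments over 7 peaks, and downstream from 4.32 to 23.6 over 4 peaks. The lowest background of the window was that of the peak at +42010 bp. It did not simply fall with distance: the peak 30740 bp upstream had a background of 16.5 fragments and the one 28270 bp upstream 6.88.

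**Figure D3:**
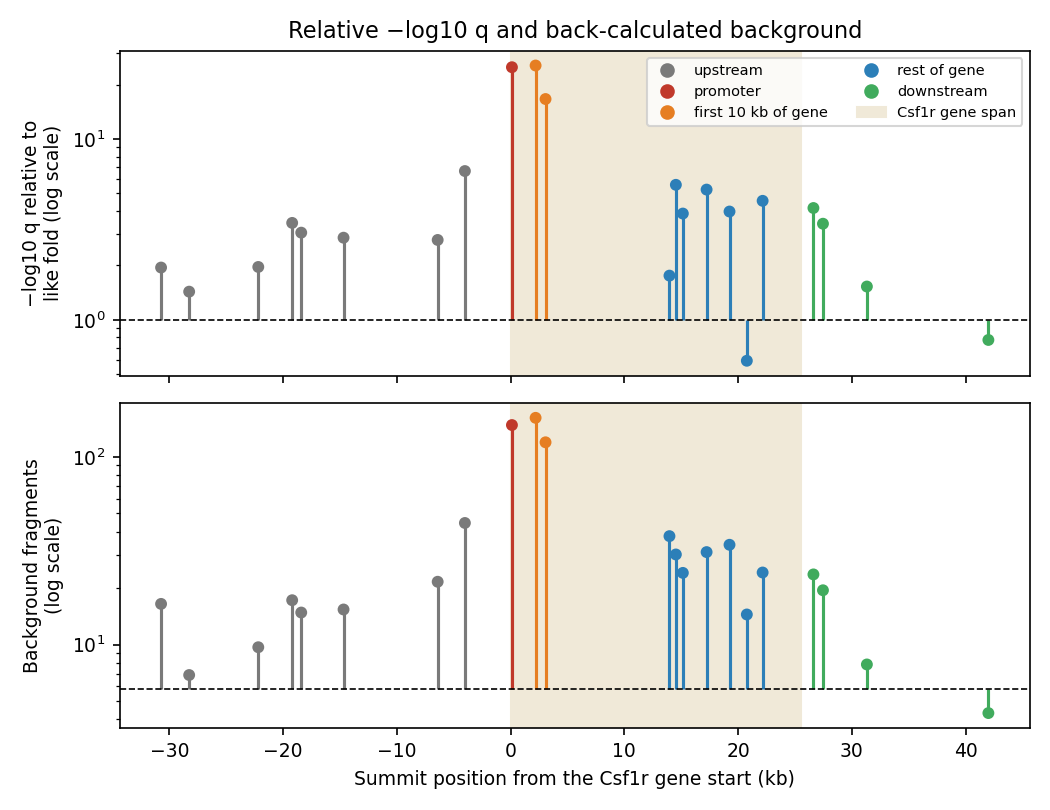
Relative −log10 q (upper axis, log scale, dashed line at 1) and calculated background in fragments (lower axis, log scale, dashed line at the list's median of 5.80) against the distance of each summit from the Csf1r gene start in kb, 1 point for each of the 22 peaks. Both values are highest at the 3 peaks around the gene start, where the background is 119.6 to 161 fragments, and lower on either side. Both rest on the same fold and test values of each peak, so their likeness is built in.

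The other 7 peaks within the gene formed a second cluster, with summits from 13965 to 22158 bp after the gene start. The highest by both measures was at chr18:61253692-61253939, with a fold of 14.7 and a −log10 q of 285. Over these 7 peaks, fold ranged from 2.89 to 14.7 with a median of 6.73, and −log10 q from 7.32 to 285 with a median of 99.5. Their widths ran from 118 to 255 bp with a median of 168 bp, with peaks both narrower and wider than the list's median of 196 bp. The cluster held the weakest peaks of the window too: those at +13965 and +20769 bp, with folds of 3.02 and 2.89, were the 2 of 22 with a fold below 5, a limit that 10.4% of the list fell under. In the RefSeq table of GRCm38.p6, the microRNA gene Mir6983 and the long non-coding RNA gene Gm52352 lie within the span of Csf1r; which of the peaks they would meet in mm39 was not analysed here.

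Upstream of the gene, 8 peaks lay between 30740 and 4023 bp before its start. The highest fold of the window was at chr18:61207612-61207995, 30740 bp before the gene start, with a fold of 21.7 and a −log10 q of 356. The highest −log10 q upstream, 384, belonged to a peak at chr18:61232129-61232373, whose summit lay 6417 bp before the start and whose fold was 19.2. The widest peak of the window, 737 bp, lay at chr18:61223688-61224424, 14694 bp before the start, and combined a fold of 12.2 with a −log10 q of 141. Over the 8 upstream peaks, fold ranged from 5.73 to 21.7 with a median of 8.95, and the relative −log10 q from 1.43 to 6.65.

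In RefSeq gene order, the protein-coding gene before Csf1r is Pdgfrb, which encodes a receptor tyrosine kinase for platelet-derived growth factor, best known from fibroblasts and pericytes, and the one after it is Hmgxb3. The list ties no peak to a gene, so the upstream and downstream peaks were not assigned to Csf1r or to a neighbour.

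Downstream, 4 peaks had summits from 26625 to 42010 bp after the gene start. The one with both the highest fold, 17.7, and the highest −log10 q, 84.6, was at chr18:61280461-61280789. Its relative −log10 q was 0.774, below the median peak of its fold and at the 17.7th percentile of the list. The other 3 downstream peaks had folds from 6.33 to 6.56. Just outside the window, the nearest peak before it lay 1865 bp away with a fold of 6.32 and a −log10 q of 54.5, and the nearest after it lay 3604 bp away with a fold of 9.74 and a −log10 q of 31.2.

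As a group, the 22 peaks had a median fold of 7.37, against 9.85 in the list and 9.90 on chromosome 18. Their median −log10 q was 92.0, against 45.3 in the list, and 18 of 22 were at or above the list's median, which 50.0% of the list reaches by definition. Only 1 of 22 peaks had a fold of 20 or more, against 15.0% of the list. A width of at least 500 bp was reached by 3 of 22, against 7.35% of the list. The rank correlation of fold with −log10 q (Spearman's rho) was 0.579 across the 22 peaks and 0.836 over the list; peaks of 1 locus share libraries and local background and are not independent.

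The window was also set beside 18488 windows of 80000 bp that tile the autosomes and X and hold at least 1 peak. The median such window held 6 peaks, with quartiles of 3 and 11, and the Csf1r window held 22, at the 98.4th percentile; 347 windows held at least as many. Its bases in peaks stood at the 98.9th percentile and its highest −log10 q at the 98.9th percentile. Its highest fold, 21.7, stood at the 45.0th percentile, below the median of 22.9. The Csf1r window was placed around a gene and the tiles were not, so the ranks describe the locus and test nothing.

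**Figure D4:**
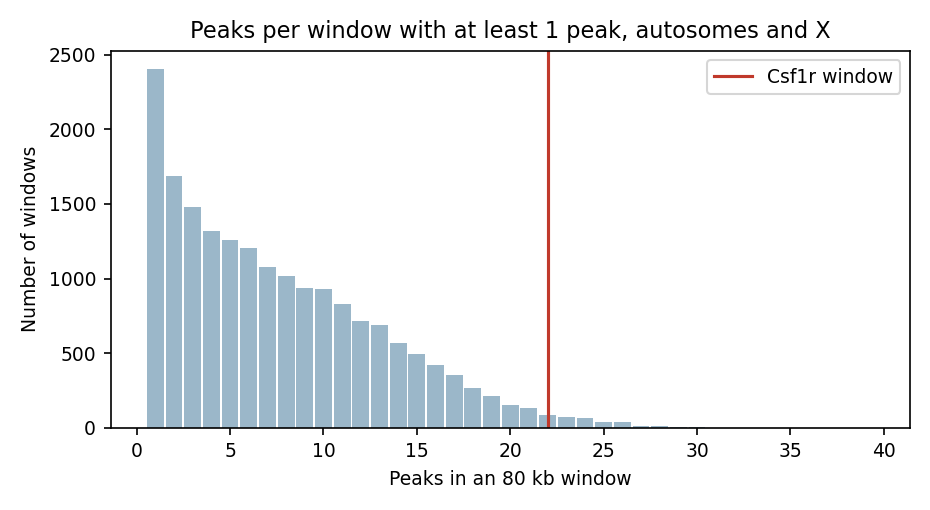
Number of 80 kb windows (y axis) by the number of peaks they hold (x axis), over 18488 windows with at least 1 peak on the autosomes and X. The red line marks the 22 peaks of the Csf1r window, which 347 windows reach or pass.

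The deposited scores bear on how many values were pooled. A score averaged over 10 groups of up to 2 samples would be whole when multiplied by 20. Within a tolerance of 1e-06, that held for 17 of the 22 peaks, close to the 76.4% of the list, so the locus did not stand out in this. A score that is already whole passes whatever was pooled, so passing does not show that 10 groups entered it. The scores of the other 5 peaks first became whole at multipliers of 6 to 18, which such an average would not give. All 3 peaks around the gene start were among the 17. The score of 2 of the 22 peaks needed the full multiplier of 20, against 14.6% of the list: the peak of highest fold, at 30740 bp upstream, and the peak at 26625 bp after the gene start. The list does not say which samples entered any score, so whether a peak was present in every group was not tested.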

How the data were processed

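ATAC-seq was measured in 19 samples, grouped by title. Per the submitters' processing notes, the build was mm39 and MACS2 2.2.7.1 was used, along with STAR 2.7.9a, deepTools 3.5.1 and Picard 2.27.4; their roles, read shifting, the peak threshold and the pooling of peaks were not given in the sources used here. In the deposited list, each peak has a score (up to 1 below 10 times the −log10 q), a fold over local background (a ratio), a −log10 p-value and a −log10 q-value, all computed by the authors. Because fold divides by local background, the same pileup gives a lower fold where that background is higher. Starts were read as counted from 1, since 74 summit offsets would reach the peak width under a count from 0 and 0 do so under a count from 1.

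Peaks overlapping the window were taken and placed by summit: promoter (within 1000 bp of the gene start), first 10000 bp of the gene, rest of the gene, upstream or downstream. Named peaks are those of the promoter and the first 10000 bp, the highest by fold and by −log10 q in each zone, the widest, and those at the window's edges; others were named after their values were seen. No group comparison or test was possible. Relative −log10 q and back-calculated pileup and background were checked on simulated lists. Those lists were made with the same fold and Poisson formulas that the calculation inverts. The check therefore covers the arithmetic and not whether the formulas hold for the deposited values. The members and lists were chosen with earlier results of these data known. Cell type markers and other genes of the receptor's pathway were not analysed here, because the gene table used belongs to GRCm38.p6; it gave names and gene order only. Scripts ran in Python 3.11.15 with scipy 1.17.1, pandas 2.3.3, matplotlib 3.10.9 and numpy 2.4.6.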

Additional observations from a re-analysis of the deposited data

How the results depend on the processing

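Among 20 results, 54 of the 76 values from other settings stayed inside the interval or, where none was computed, within 1.5 times. The intervals treated bases, peaks or windows as independent and held no replicate error, so 54 is no measure of robustness. Settings for relative −log10 q and background were chosen after seeing the data. A window 20000 bp shorter on each side held 12 peaks. The share covered was 6.61% without peaks below the median −log10 q, 5.88% in a window 20000 bp longer on each side and 8.01% within the gene and 10000 bp on each side. The peak of highest fold, rank 1 by fold, had rank 5 by −log10 q. With windows without a peak included, the percentiles were 99.1 for peak number, 99.4 for bases in peaks, 68.3 for highest fold and 99.4 for highest −log10 q. Without peaks below the median −log10 q they were 99.7, 99.5, 34.3 and 98.7. Against peaks whose score is whole when multiplied by 20, relative −log10 q at the promoter, +2194 and +3068 bp was 26.9, 28.0 and 15.0. Within quartiles of width it was 25.9 at the promoter and 9.94 at +3068 bp. At the promoter it was 26.0 with 20 bins and 27.4 with 500 bins. At +3068 bp it was 19.4 against chromosome 18 only and 17.5 against peaks of 100 to 700 bp. The lower count follows from a shorter window, and the share of 6.61% from fewer peaks. Including windows without a peak can only raise the percentiles, because those windows rank below any with peaks. For the other values the cause was not tested. Joining peaks that touch, a start counted from 0, other promoter zones and placement by midpoint moved no result past its interval. Joining could change nothing, since the closest peaks were 348 bp apart. Nor could the other promoter zones, since no summit lay between 113 and 2194 bp from the gene start. These fixed outcomes are among the 54 values. Since depth is unknown, a stretch without a peak cannot be read as closed chromatin. Fits that leave out a replicate could not be made. No paired analysis was possible because no value per sample was analysed here.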

Other observations

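The 3 peaks around the Csf1r start were 1 of 58 runs on assembled chromosomes in which at least 3 neighbouring peaks, each within 5000 bp of the last, all had a relative −log10 q of at least 10. Ordered by the lowest ratio in each run, the Csf1r run had rank 6. Chromosome 18 held 2 of the 58, the other at chr18:34989320-34994744 with 4 peaks. The runs ranked above Csf1r lay at chr2:98492580-98497656, chr9:56980305-56984392, chr8:85702950-85706879, chr17:56381551-56386701 and chr8:11605287-11608499. The run on chromosome 2, at rank 1, had relative −log10 q of 79.4 to 139.5 at folds of 4.62 to 27.3. Whether artefact signal enters any of these runs was not tested. In the run on chromosome 9, 3 peaks with folds of 5.54 to 9.75 had relative −log10 q of 25.5 to 27.5, above the 16.6 to 25.5 at Csf1r. Runs of neighbouring peaks with a relative −log10 q of at least 10 were therefore not confined to the Csf1r locus. Fold itself was not limited in choosing the runs. The limits of 3 peaks, 5000 bp and 10 were chosen after the Csf1r values were seen.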
